A study of Mus musculus with 4 samples.

Results

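The genes described here are 44 genes of mitosis and of the G2 phase before it, in activated mouse CD4+ T cells with and without the histone methyltransferase Setd2. They were given as a list of gene names, drawn up with earlier results of these data known, and all 44 were found among the 18560 genes of the expression table. The cells were naive CD4+ T cells from the spleen of C57BL/6 mice, stimulated with antibodies against CD3 and CD28 to give Th0 cells, which are activated helper T cells not directed to an effector type. One group held 2 wild type libraries, numbered 1 and 6, and the other held 2 libraries labelled Setd2-CD4 cre, numbered 9 and 12 and called knockout here, in which a Cre recombinase under Cd4 control deletes Setd2. The labels do not say whether the wild type mice carried Cre, nor whether the 2 samples of a group came from separate mice, so a p-value here reflects only how far these samples lie apart, possibly for technical reasons. The stimulation time is 48 in the sample titles, 3 days in the treatment labels and 2 days in the series design.

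Stimulated T cells divide quickly, and the genes of mitosis are switched on late in each division cycle. Cyclin A and cyclin B activate the kinase Cdk1, which drives the cell into mitosis, while the kinases Plk1 and Aurora A build the spindle and the kinase Aurora B, in the chromosomal passenger complex, corrects how chromosomes attach to it. The spindle checkpoint holds the cell until every kinetochore is attached, after which the anaphase-promoting complex with Cdc20 removes securin and cyclin B, separase is freed and the chromatids part. Many of these genes are transcribed in G2 by B-Myb and FoxM1 acting with the MuvB complex on a promoter element called the cell cycle homology region, often next to CCAAT boxes bound by NF-Y. In quiescent cells the DREAM complex represses the same genes through that element.

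The promoters of 36 of the 44 genes had an entry in the RefSeq promoter table of GRCm38.p6 (39 promoters of 300 bases, 250 before and 50 after the start). Searched on both strands, the cell cycle homology letters TTTGAA occurred in 29 of the 39 (74.4%), against 17.9% of all 32851 promoters in the table. The variant TTTAAA occurred in 23.1% against 13.2%, and CCAAT in 76.9% against 37.4%. A promoter was counted once however many matches it held, and matches may overlap. Both a homology element (either spelling) and CCAAT were found in 28 of the 39 (71.8%), against 10.7% of all promoters. A match is a run of letters and not a measured binding site. The 160 bases before the start of Cdk1, cyclin B1, cyclin B2, the anaphase activator Cdc20 and the kinase Plk1 are shown 5′ to 3′ along the gene. Cdk1 and cyclin B1 were the 2 members with the highest fold changes below. The fold change of the closely related cyclin B2 was near 0 as counted. Capitals mark matches to any of these motifs on either strand.
Cdk1, chr10:69352913-69353072, minus strand: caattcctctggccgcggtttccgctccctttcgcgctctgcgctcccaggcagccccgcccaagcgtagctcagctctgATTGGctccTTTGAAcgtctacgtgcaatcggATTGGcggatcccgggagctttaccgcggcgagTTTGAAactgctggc
Ccnb1, chr13:100786487-100786646, minus strand: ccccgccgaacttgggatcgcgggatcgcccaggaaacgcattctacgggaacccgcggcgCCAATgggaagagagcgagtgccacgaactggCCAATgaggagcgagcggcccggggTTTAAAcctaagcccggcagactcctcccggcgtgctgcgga
Ccnb2, chr9:70421555-70421714, minus strand: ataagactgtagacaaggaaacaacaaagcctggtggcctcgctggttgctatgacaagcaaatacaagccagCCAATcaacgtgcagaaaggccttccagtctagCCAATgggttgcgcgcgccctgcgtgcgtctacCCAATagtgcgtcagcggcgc
Cdc20, chr4:118437344-118437503, minus strand: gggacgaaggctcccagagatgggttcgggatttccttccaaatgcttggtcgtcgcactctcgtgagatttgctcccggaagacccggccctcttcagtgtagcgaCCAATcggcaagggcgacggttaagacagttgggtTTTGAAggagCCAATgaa
Plk1, chr7:122159275-122159434, plus strand: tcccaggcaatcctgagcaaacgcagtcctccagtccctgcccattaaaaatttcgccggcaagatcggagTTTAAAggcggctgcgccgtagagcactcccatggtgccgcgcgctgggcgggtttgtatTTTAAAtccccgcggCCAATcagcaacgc
In these windows Cdk1 and Plk1 held 2 homology matches each, Ccnb1 and Cdc20 held 1 each, and Ccnb2 held 3 CCAAT matches and 0 homology matches. The TTTGAA letters of Ccnb2 lie outside the stretch shown. The windows of Pttg1, Mybl2, Nuf2, Nusap1 and Mad2l1 held none of the 3 motifs. Those of Pttg1 (43425932 to 43426231, minus strand) and Mybl2 (163054385 to 163054684, plus strand) lay inside the gene spans given below. The bases before the outer start of these genes were therefore not searched. Among 107 promoters of other mitosis genes, introduced below, 41.1% held TTTGAA and 58.9% CCAAT, and among 46 promoters of DNA replication genes 10.9% and 63.0%. TTTGAA was thus more frequent in the mitosis lists than in the replication list, and CCAAT was frequent in all 3.

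The libraries held between 17284613 and 20418766 counts. Setd2 itself (gene 235626, GRCm38.p6 chromosome 9, 110532500 to 110618633) read 157 and 174 CPM (counts set to a common library total, scaled by the trimmed mean of M-values, TMM) in the wild type pair, and 127 and 113 CPM in the knockout pair, with a log2 fold change of -0.47 (SE 0.21, edgeR adjusted p 0.421). With a trend on transcript length removed, as described below for the members, it was -0.07. The gene-level count includes exons outside any deleted part, so it is no check of the labels. Wild type replicate 6 and knockout replicate 12 stood at opposite ends of the first principal component, which held 56% of the variance, so results are given with and without them where they matter. The 7 T cell marker genes, led by Cd28 and Cd4, summed to 2490 and 2790 against 2133 and 2053 CPM (wild type against knockout). The 6 B cell markers summed to 274.5 and 191 against 202 and 355 CPM, and 3 markers of CD8+ and gamma-delta T cells, led by Cd8b1, to 260.5 and 330.5 against 433 and 324 CPM. Klrk1 led the 4 NK cell markers, which summed to 12.8 and 27.4 against 64.4 and 25.1 CPM, while the 6 myeloid markers (led by Cst3) and the 7 erythroid markers (led by Hbb-bs) stayed within 63.9 to 79.0 CPM and 2.7 to 20.7 CPM over the 4 libraries. No T cell marker was at 0 in any library. Markers of B cells and of CD8+ T cells were thus present in every library. The B cell sum was highest in knockout replicate 12, and the CD8+ and gamma-delta T cell and NK cell sums were highest in knockout replicate 9. Klrk1 alone read 59.2 CPM of the NK cell sum of 64.4 CPM in that library. Klrb1c (3.13 CPM) was also highest there, but Ncr1 and Klra8 were highest in wild type replicate 6. Sox13, from the CD8+ and gamma-delta T cell list, stayed at 0.15 to 0.62 CPM, so that sum was nearly all Cd8a and Cd8b1. The T cell sum was lower in both knockout libraries. The part of these differences in the results below was not tested.

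No gene of the mitosis and G2 list passed the test between Setd2 knockout and wild type cells. The 44 genes passed the filter on low counts, and 0 were higher and 0 lower in knockout cells at an edgeR adjusted p under 0.05, where 0.0078% and 0.0% of the 12816 genes tested were called. DESeq2 also called 0 of the 44, against 1.45% of all genes. At an unadjusted edgeR p under 0.05 there was 1 higher gene, Ccnb1, and 2 lower genes, Foxm1 and Pttg1, whereas 6.23% and 5.73% of all genes passed in each direction. These counts moved with the setting: DESeq2 and a fit with no filter on low counts each gave 2 higher and 3 lower members, against 6.59% and 6.48% (DESeq2) and 6.24% and 5.43% (no filter) of all genes. Without knockout replicate 9 there were 2 higher and 7 lower members, against 8.08% and 10.7% of all genes, and without knockout replicate 12 there were 0 higher and 1 lower, against 2.15% and 2.42%. The log2 fold changes of the 44 ran from -0.75 to 0.59 with a median of -0.10, against a median of -0.002 over all genes tested, and 19 were positive (49.8% of all genes). The lower and upper quartiles were -0.30 and 0.17 for the members and -0.33 and 0.34 for all genes.

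The size of change that these libraries allow can be read from the 95% intervals of the edgeR fit. For 39 of the 44 genes the interval lay within 2-fold in either direction, against 48.8% of all genes tested. The other 5 were Cdk1, Ccnb1, Foxm1, Mki67 and Pttg1, which were also the 5 members with a log2 fold change beyond 0.5 (11.4% of members, 32.1% of all genes). The members are abundant genes, with a median level of 51.1 FPKM (fragments set to a common library total and divided by transcript length) against 9.81 FPKM for all genes tested, and their median SE was 0.218 against 0.268. For 27 of the 44 genes (61.4%, against 67.3% of all genes) the 2 libraries of at least 1 genotype differed by more than the genotype means did. The knockout pair differed by a median of 0.27 on the log2 scale, the wild type pair by 0.16 and the genotypes by 0.26.

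**Figure D1:**
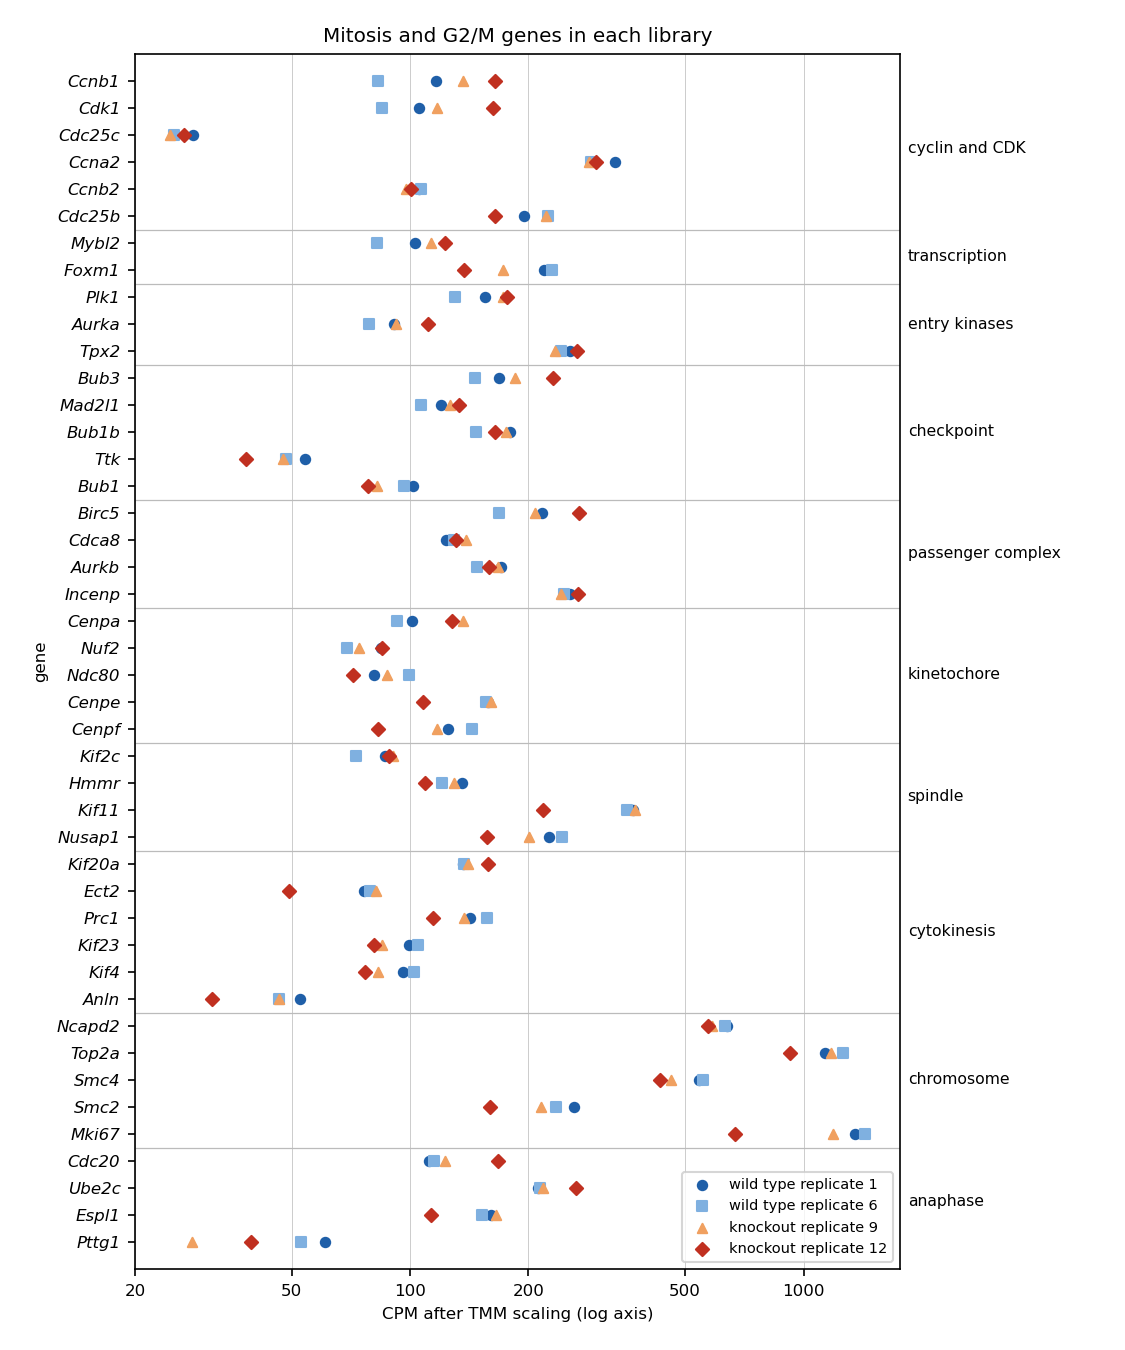
Level of each of the 44 genes in the 4 libraries, in CPM after TMM scaling on a log axis, grouped by role. Each point is 1 library. For most genes the knockout points lie among or beside the wild type points, and for Mki67, Kif11 and Cenpe knockout replicate 12 (red diamonds) stands alone at the low end.

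The knockout pair stood wholly above the wild type pair for 13 members and wholly below it for 14, and the pairs overlapped for 17. Over all genes tested 25.4% lay above and 24.3% below. As a set the 44 genes summed to 9536 and 9441 CPM in wild type replicates 1 and 6 and to 9142 and 8100 CPM in knockout replicates 9 and 12, a log2 ratio of -0.14. The sum was lowest in knockout replicate 12 and close together in the other 3 libraries. Mki67 and Top2a made up a large part of the sum, and without them it was 7050 and 6746 against 6776 and 6507 CPM (log2 ratio -0.06), with groups that overlapped. In bulk RNA a smaller number of cells in mitosis and less of these transcripts in each cell cannot be told apart.

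Among the regulators of mitotic entry, Cdk1 and cyclin B1 were the members with the highest fold changes, and those of the other cyclins were near 0 as counted. Ccnb1, which encodes the main activating subunit of Cdk1 in mitosis (gene 268697, chromosome 13, 100778739 to 100786486), read 117 and 83.0 CPM in the wild type pair, and 136 and 164 CPM in the knockout pair. The groups did not overlap, and the log2 fold change was 0.59 (SE 0.25, 95% interval 0.01 to 1.16, edgeR p 0.0458, adjusted p 0.416). Cdk1, the kinase itself (gene 12534, chromosome 10, 69335146 to 69352912), stood at 106 and 84.8 against 117 and 162 CPM. Its log2 fold change was 0.56 (SE 0.25, edgeR p 0.0571, adjusted p 0.418), and again both knockout libraries were the higher ones, by a small margin for knockout replicate 9. With 1 library left out, the fold change of Cdk1 ran from 0.30 (without knockout replicate 12) to 0.76 (without knockout replicate 9), and that of Ccnb1 from 0.36 (wild type 6 left out) to 0.87 (wild type 1 left out). Cyclin B2, the Golgi-associated relative of cyclin B1 (Ccnb2, gene 12442), stood at 106 and 106 against 97.6 and 100 CPM. Its log2 fold change was -0.10 with an interval of -0.57 to 0.37, and -0.31 (SE 0.18) with a length trend removed, described below. Cyclin A2 (Ccna2, gene 12428), which acts with Cdk2 and Cdk1 from S phase to early mitosis, stood at 331 and 288 against 285 and 296 CPM (log2 -0.09, interval -0.57 to 0.39). The ratio of Ccnb1 to Ccnb2 counts was therefore 1.10 and 0.781 in wild type and 1.40 and 1.64 in knockout libraries, a pair chosen after its values were seen. The phosphatases that activate Cdk1 by removing inhibitory phosphates had log2 fold changes of -0.12 (Cdc25b, 195 and 224 against 221 and 165 CPM) and -0.05 (Cdc25c, the lowest member by CPM in each library, at 24.5 to 28.0 CPM). Neither separated the genotypes.

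The 2 transcription factors of the group differed in sign. Foxm1, the forkhead factor that drives late cell cycle genes (gene 14235, chromosome 6, 128362994 to 128375886), read 219 and 229 CPM in the wild type pair, and 172 and 137 CPM in the knockout pair. Both knockout libraries were lower, with a log2 fold change of -0.53 (SE 0.22, interval -1.04 to -0.02, edgeR p 0.0424, adjusted p 0.413). Mybl2, which encodes B-Myb, the partner of the MuvB complex (gene 17865, chromosome 2, 163054327 to 163084688), stood at 103 and 82.2 against 113 and 123 CPM (log2 0.35, SE 0.22, edgeR adjusted p 0.491). Both knockout libraries were higher. The ratio of Foxm1 to Mybl2 was 2.13 and 2.79 in wild type and 1.52 and 1.12 in knockout libraries, again a pair chosen after its values were seen. With a length trend removed from each library, described below, the fold changes of Foxm1 and Mybl2 were -0.39 and 0.45, so the opposite signs were kept.

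The entry kinases and their partner had fold changes above or near 0, none past the test. Plk1, the Polo-like kinase (gene 18817), stood at 155 and 130 against 172 and 176 CPM (log2 0.29, SE 0.21, edgeR adjusted p 0.546), and Aurka, Aurora A (gene 20878), at 91.0 and 78.6 against 92.1 and 111 CPM (log2 0.26, SE 0.22, adjusted p 0.589). In both genes the knockout libraries were the higher ones, but for Aurka knockout replicate 9 exceeded wild type replicate 1 by about 1 CPM. Tpx2, which activates Aurora A on spindle microtubules (gene 72119), stood at 255 and 241 against 234 and 266 CPM, with overlapping groups and a log2 fold change of 0.01.

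Spindle checkpoint genes were split. Bub3, a subunit shared by the checkpoint complexes (gene 12237, chromosome 7, 131560367 to 131571895), stood at 169 and 146 against 185 and 231 CPM (log2 0.40, SE 0.22, edgeR adjusted p 0.460). Bub1, the kinase that recruits other checkpoint proteins to the kinetochore (gene 12235), stood at 102 and 96.7 against 82.5 and 78.2 CPM (log2 -0.31, SE 0.20, edgeR adjusted p 0.510). These genes separated the genotypes in opposite directions, neither past the test. Mad2l1, encoding the Mad2 protein that inhibits Cdc20, had a log2 fold change of 0.20 (106 to 120 CPM in wild type, 126 and 133 CPM in knockout), Bub1b, encoding BubR1, one of 0.06, and Ttk, the kinase Mps1 that starts checkpoint signalling, one of -0.26 (54.2 and 48.5 against 47.6 and 38.3 CPM). For Ttk knockout replicate 9 and wild type replicate 6 differed by about 1 CPM.

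The 4 genes of the chromosomal passenger complex had fold changes from 0.02 to 0.31 on the log2 scale, none past the test. Aurkb, Aurora B (gene 20877, chromosome 11, 69045624 to 69051664), read 171 and 148 CPM in the wild type pair, and 168 and 159 CPM in the knockout pair (log2 0.04, interval -0.45 to 0.52). Incenp, the scaffold of the complex (gene 16319), stood at 255 and 247 against 242 and 267 CPM (log2 0.02, interval -0.45 to 0.50). Cdca8, encoding borealin (gene 52276), stood at 123 and 129 against 139 and 131 CPM (log2 0.09). Birc5, encoding survivin (gene 11799), stood at 216 and 169 against 208 and 269 CPM (log2 0.31, SE 0.24, edgeR adjusted p 0.564). The groups overlapped for Aurkb, Incenp and Birc5, and the 4 intervals lay within 2-fold.

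Of the 5 kinetochore genes, Cenpa was higher and Cenpf lower in both knockout libraries, and the other 3, Cenpe among them, overlapped between genotypes. None passed the test. Cenpa, the histone H3 variant that marks centromeres (gene 12615, chromosome 5, 30666877 to 30674837), read 101 and 92.4 CPM in the wild type pair, and 136 and 128 CPM in the knockout pair (log2 0.45, SE 0.21, edgeR p 0.0615, adjusted p 0.421). The 2 knockout libraries were close together and above both wild type libraries. Cenpf, a very large kinetochore protein (gene 108000, chromosome 1, 189640606 to 189688107), stood at 125 and 144 against 117 and 82.9 CPM (log2 -0.43, SE 0.24, edgeR adjusted p 0.464), and Cenpe, the kinetochore kinesin, at 157 and 156 against 161 and 108 CPM (log2 -0.22). In both the low value was that of knockout replicate 12. The NDC80 complex genes Ndc80 (log2 -0.18) and Nuf2 (0.05), which bind microtubules at the kinetochore, overlapped between genotypes.

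Among spindle motors and microtubule-binding proteins, Kif11 had 1 low library and Nusap1 had 2. Kif11, the kinesin Eg5 that pushes the spindle poles apart (gene 16551, chromosome 19, 37376382 to 37421863), read 370 and 356 CPM in the wild type pair, and 373 and 218 CPM in the knockout pair (log2 -0.30, SE 0.28, edgeR adjusted p 0.640). Knockout replicate 9 was level with wild type and the whole difference was in knockout replicate 12. Nusap1, which bundles spindle microtubules (gene 108907), stood at 225 and 244 against 200 and 157 CPM (log2 -0.39, SE 0.22, edgeR adjusted p 0.464), lower in both knockout libraries. Kif2c, the microtubule-depolymerizing kinesin MCAK (log2 0.17), and Hmmr, a spindle assembly protein (log2 -0.10), differed by less than 1 SE.

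In the cytokinesis group 5 of 6 genes had a negative fold change, and 0 passed. Kif4, a kinesin of chromosome arms and the central spindle (gene 16571), stood at 95.7 and 102 against 82.9 and 76.8 CPM (log2 -0.31, SE 0.20, edgeR adjusted p 0.506), and Kif23, a subunit of centralspindlin (gene 71819), at 99.6 and 104 against 84.8 and 81.2 CPM (log2 -0.30, SE 0.20, adjusted p 0.516). For both genes the 2 knockout libraries lay below the wild type pair. Anln, the actin-binding anillin of the contractile ring, had a log2 fold change of -0.35, the microtubule crosslinker Prc1 one of -0.25, and Ect2, the exchange factor that activates RhoA at the cleavage site, one of -0.24. Anln and Ect2 again had a single low library, knockout replicate 12, at 31.4 and 49.4 CPM against 46.3 to 52.5 and 76.5 to 82.0 CPM in the other 3. Kif20a, which carries the passenger complex to the midzone, was the exception, at 136 and 137 against 140 and 158 CPM (log2 0.13). Part of the exon length of Kif20a (31.8%), Prc1 (21.8%) and Kif4 (15.1%) overlaps a gene on the opposite strand in GENCODE M21, as does that of Ube2c (22.8%) and Ccna2 (10.4%). Since no source used here says whether strand was used in counting, reads of the 2 genes cannot be told apart there. The counts of Kif4 were whole numbers in the 4 libraries, while those of Kif20a, Prc1, Ube2c and Ccna2 had decimals.

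The 5 genes of chromosome structure included the 4 most abundant members by CPM, and their fold changes had the same sign. Mki67, the proliferation marker Ki-67 that coats mitotic chromosomes (gene 17345, chromosome 7, 135689784 to 135716450), read 1354 and 1435 CPM in the wild type pair, and 1190 and 671 CPM in the knockout pair. Its log2 fold change was -0.58 (SE 0.29, interval -1.25 to 0.08, edgeR p 0.0766, adjusted p 0.429). Knockout replicate 12 lay far below the other 3 libraries, and without it the fold change was -0.23. Smc2, an ATPase of condensin (gene 14211), stood at 261 and 234 against 215 and 160 CPM (log2 -0.40, SE 0.23, edgeR adjusted p 0.470). Its partner Smc4 was at 543 and 555 against 461 and 432 CPM (log2 -0.30, SE 0.20), and the condensin I subunit Ncapd2 at 639 and 631 against 584 and 572 CPM (log2 -0.13, SE 0.20). Top2a, the topoisomerase that untangles sister chromatids (gene 21973, chromosome 11, 98992947 to 99024199), stood at 1131 and 1260 against 1175 and 922 CPM (log2 -0.19, SE 0.22). All 5 fold changes were negative with all libraries and with any single library left out, and with the length trend removed 2 of the 5, Top2a (0.02) and Ncapd2 (0.03), turned positive.

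The genes of anaphase held the member with the smallest p. Pttg1, which encodes securin, the inhibitor of separase that is destroyed when chromatids part (gene 30939, chromosome 11, 43420244 to 43427463), read 60.7 and 52.8 CPM in the wild type pair, and 28.0 and 39.3 CPM in the knockout pair. Both knockout libraries were lower, and knockout replicate 9 rather than 12 was the lowest. The log2 fold change was -0.75 (SE 0.24, interval -1.32 to -0.19), a ratio of 0.593, at an edgeR p of 0.0157 (adjusted 0.396). With 1 library left out it ran from -0.54 (without knockout replicate 9) to -1.02 (without knockout replicate 12), with edgeR adjusted p from 0.304 to 0.781. Its counts were whole numbers within 0.005 in the 4 libraries, as in 29 of the 44 members, whereas an RSEM count with decimals comes from reads shared between genes. Foxm1, Mybl2, Birc5, Ube2c and Kif11 are among the 15 members with such decimals. Separase itself (Espl1, gene 105988) stood at 161 and 153 against 166 and 113 CPM (log2 -0.17). Cdc20, the activator of the anaphase-promoting complex (gene 107995), stood at 112 and 115 against 122 and 168 CPM (log2 0.35, SE 0.23, edgeR adjusted p 0.509), and Ube2c, the ubiquitin-conjugating enzyme of that complex (gene 68612), at 211 and 214 against 218 and 264 CPM (log2 0.18). Without knockout replicate 12 the fold change of Cdc20 was 0.11.

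**Figure D2:**
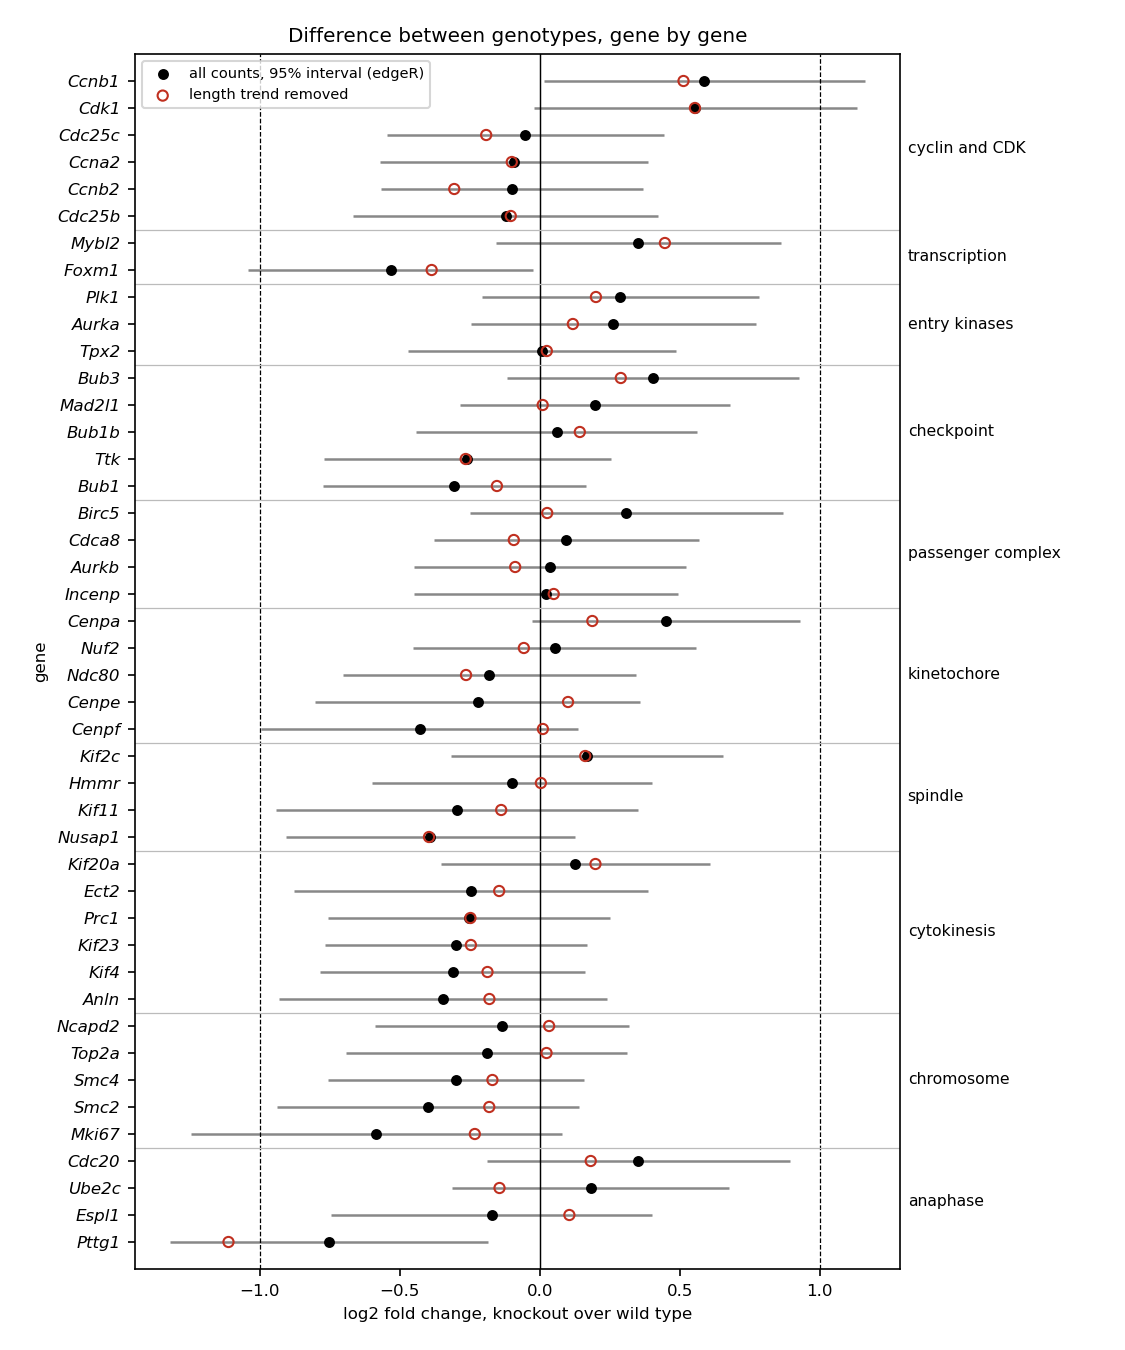
Log2 fold change (knockout over wild type) of the 44 genes by role, with edgeR 95% intervals (black points and grey lines) and the value with the length trend removed (red circles). Dashed lines mark 2-fold. Intervals of 39 genes stay within the dashed lines, and 3 exclude 0 (Ccnb1, Foxm1 and Pttg1).

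Per length of transcript the order of the members is different. By mean FPKM over the 4 libraries Ube2c was first (248 FPKM), followed by Top2a (214), Birc5 (180) and Ncapd2 (134), and Mki67, first by CPM in both wild type libraries, was the fifth at 123 FPKM. The neighbours Mki67 and Smc4 (121 FPKM) did not differ beyond their spread, since Mki67 ran from 68.1 to 159 FPKM and Smc4 from 99.1 to 142 FPKM. Aurkb, Incenp and Cdca8 stood together at 81.2, 80.8 and 80.6 FPKM, and Ndc80 and Nuf2 at 38.6 and 37.3 FPKM, levels per length that lay within the spread of the libraries. The lowest levels per length were those of Cdc25c (13.6), Cenpf (10.7) and Anln (9.14 FPKM). Of the 44 genes, 43 were above the median level of all genes tested.

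Long members tended to be lower in knockout libraries and short ones higher, as genes in general were. Effective lengths were taken from the ratio of the deposited counts to FPKM. Over all genes tested the median log2 fold change went from 0.26 for genes under 2000 bases through 0.05 (2000 to 3000 bases) and -0.09 (3000 to 4500) to -0.30 for genes over 4500 bases. The members followed it, with medians of 0.18 (11 genes), 0.05 (11), -0.12 (13) and -0.30 (9) in the same classes. All 9 members over 4500 bases, among them Mki67, Cenpf, Smc2 and Kif11, had negative fold changes, where 655 of 2768 genes of that class were positive. Under 2000 bases 8 of 11 members were positive, and the exceptions were Pttg1, Ccnb2 and Cdc25c. Across the 44 genes the log2 fold change and log2 length had a Pearson r of -0.45 and a Spearman rho of -0.59, and across all 12803 genes with a length -0.30 and -0.39. These genes share the same 4 libraries and are not independent replicates.

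The slope on length differed between libraries and was steepest in knockout replicate 12. Over all genes both knockout slopes lay below both wild type slopes, so an effect of library and one of genotype cannot be told apart. Relative to the mean of the 4 libraries, levels over all genes changed by -0.22 (log2) per doubling of length in knockout replicate 12, and by 0.05, 0.14 and 0.03 in wild type replicates 1 and 6 and knockout replicate 9. For the 44 members the slopes were -0.23 in knockout replicate 12 and 0.06, 0.12 and 0.06 in the others. Once a smooth trend on length was removed from each library, the member medians in the 4 length classes were -0.09, -0.06, -0.10 and 0.01, 21 of 44 fold changes were positive and the median was -0.07. The fold change of Cenpf went from -0.43 to 0.01, that of Mki67 from -0.58 to -0.23 and that of Cenpa from 0.45 to 0.19. Cdk1 (0.56 before and 0.55 after) and Ccnb1 (0.59 and 0.51), of middling length, kept nearly the same value. Pttg1, the shortest member at 735 bases, moved away from 0, from -0.75 to -1.11 (SE 0.18, edgeR p 0.000436, adjusted p 0.192), and was the 1 member at an unadjusted p under 0.05 in that fit. Of all genes tested, 5.5% were lower and 4.8% higher at that unadjusted edgeR threshold in the same fit. Still 0 members passed after adjustment.

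**Figure D3:**
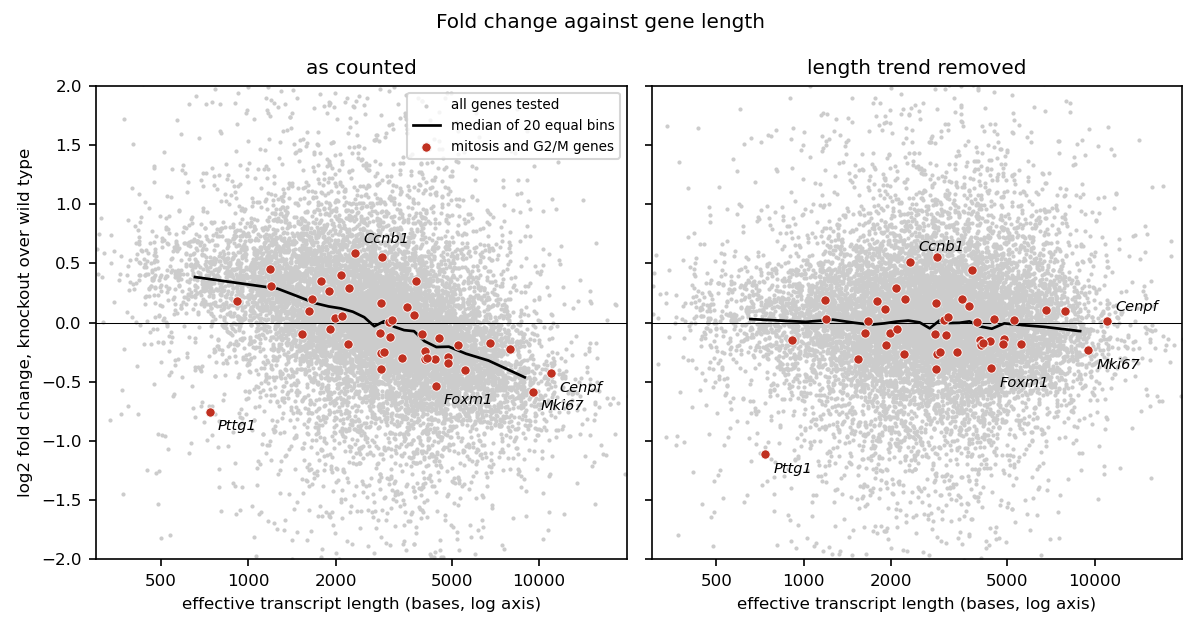
Log2 fold change against effective transcript length (log axis) for all genes tested (grey), their median in 20 equal bins (black line) and the 44 genes (red), as counted on the left and with the length trend removed on the right. Genes beyond 2 on the vertical axis are not drawn. On the left most red points follow the downward course of the black line. Pttg1 lies far below it and Cdk1 and Ccnb1 above it, and these 3 also stand away from 0 on the right.

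Removing the library at the steep end also brought the median of the members nearer to 0. Not every gene moved as it did with the length trend removed. Cdk1 was at 0.30 and Cenpa at 0.49 without knockout replicate 12, against 0.55 and 0.19 with the length trend removed. In the chromosome group 0 of 5 fold changes were positive without that library, against 2 of 5 with the length trend removed. Without knockout replicate 12 the median of the members was -0.01, with 22 positive and 22 negative, and the medians of the spindle and cytokinesis groups went from -0.20 and -0.28 to 0.03 and -0.11. Single genes moved too: without knockout replicate 12 the fold change was 0.23 for Bub3, 0.12 for Aurka, 0.11 for Birc5, -0.20 for Cenpf, -0.20 for Smc2 and -0.23 for Nusap1, while Cenpa (0.49) and Foxm1 (-0.38) moved less. Without wild type replicate 6 the median was -0.10 with 14 positive, and the fold changes of Mybl2 and Plk1 were 0.20 and 0.16. Knockout replicate 12 was the lowest library for 21 of the 44 genes and wild type replicate 6 for 13, while over all genes tested these libraries were lowest for 34.4% and 33.1%. The 2 libraries at the ends thus held the lowest value for most members, as for most genes.

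The wider set of mitosis genes held no called gene either, and a larger share of its fold changes was negative. The list held 108 other genes of kinetochores, centromeres, condensin and cohesin, the anaphase-promoting complex and the spindle. Of these, 0 passed in edgeR over all genes tested and 0 in DESeq2. At an unadjusted edgeR p under 0.05 there was 1 higher (Ube2s) and 3 lower (Numa1, Ncapd3 and Kif15), against 6.23% and 5.73% of all genes. Those under 2000 bases had a median of -0.05, against 0.18 for the members and 0.26 for all genes of that length. The median of the whole list was -0.12 with 33 positive (49.8% of all genes), and -0.13 with 33 positive after the length trend was removed. Numa1, which anchors the spindle poles, stood at 283 and 320 against 207 and 210 CPM (log2 -0.53, SE 0.21, edgeR adjusted p 0.413) before that and had a log2 fold change of -0.18 after it. Ncapd3, a condensin II subunit, stood at 179 and 223 against 151 and 103 CPM (log2 -0.67, SE 0.26, edgeR adjusted p 0.413) and at -0.45 after it. Ube2s, the chain-extending enzyme of the anaphase-promoting complex and thus the partner of Ube2c, stood at 246 and 232 against 286 and 428 CPM (log2 0.58, SE 0.25, edgeR adjusted p 0.416). Kif15, a spindle kinesin that overlaps in role with Kif11, stood at 145 and 149 against 113 and 87.5 CPM (log2 -0.55, SE 0.22, edgeR adjusted p 0.413). Ube2s and Kif15 were named because the counts are small, after their values were seen.

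The regulators above the mitosis genes did not pass either. Of 12 MuvB and DREAM genes 0 passed in edgeR or DESeq2, and the median was -0.23. There were 0 higher and 1 lower at an unadjusted edgeR p under 0.05, against 6.23% and 5.73% of all genes. Rbl1, the pocket protein p107 of the DREAM complex, stood at 174 and 198 against 145 and 79.1 CPM (log2 -0.73, SE 0.30, edgeR adjusted p 0.414), and E2f4, its repressor E2F partner, at 243 and 182 against 290 and 309 CPM (log2 0.50, SE 0.23, adjusted p 0.421). The 2 components of the repressor thus had opposite signs. The low value of Rbl1 was that of knockout replicate 12, and without that library the lowest fold change among the 12 genes was -0.40 (with the length trend removed, -0.62 for Rbl1). Of 17 G1 regulators 0 passed in edgeR or DESeq2, with 1 higher and 2 lower at an unadjusted edgeR p, against the same shares of all genes. The lower were Rb1, the retinoblastoma protein gene, at 107 and 140 against 86.2 and 53.7 CPM (log2 -0.82, SE 0.28), and the CDK inhibitor gene Cdkn2c at 35.4 and 44.9 against 27.6 and 24.9 CPM (log2 -0.61, SE 0.23), with edgeR adjusted p values of 0.412 and 0.412. The higher was Mycn, at 2.54 and 1.42 against 4.82 and 4.90 CPM (log2 1.29, SE 0.48).

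Genes of DNA replication act in the phase before G2, and their values had another spread over the libraries. Of 50 replication genes 0 passed in edgeR or DESeq2. At an unadjusted edgeR p under 0.05 there was 1 higher and 0 lower, against 6.23% and 5.73% of all genes. The higher one was Rpa2, a subunit of the single-strand binding protein, at 72.6 and 58.1 against 101 and 121 CPM (log2 0.76, SE 0.23, edgeR adjusted p 0.386). The origin recognition gene Orc6 had the next smallest p, at 66.6 and 50.4 against 80.1 and 88.0 CPM (log2 0.52, edgeR adjusted p 0.417). Their median was 0.15 with 36 positive, against -0.10 and 19 of 44 for the mitosis genes, a difference of -0.25 between the medians. With the length trend removed the replication median was 0.07 with 29 positive, and the difference between the medians -0.14. Wild type replicate 6 was the lowest library for 37 of the 50 replication genes, and without it their median was -0.01 with 25 positive. The median deviation of the replication genes from the mean of the 4 libraries was 0.08 and -0.22 in wild type and 0.00 and 0.15 in knockout libraries, while that of the mitosis genes was 0.08 and 0.02 against 0.03 and -0.06. Over the replication genes the wild type replicates differed by a median of 0.29 and the genotypes by 0.20 on the log2 scale, and whether the 2 lists differ between genotypes was not tested.

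**Figure D4:**
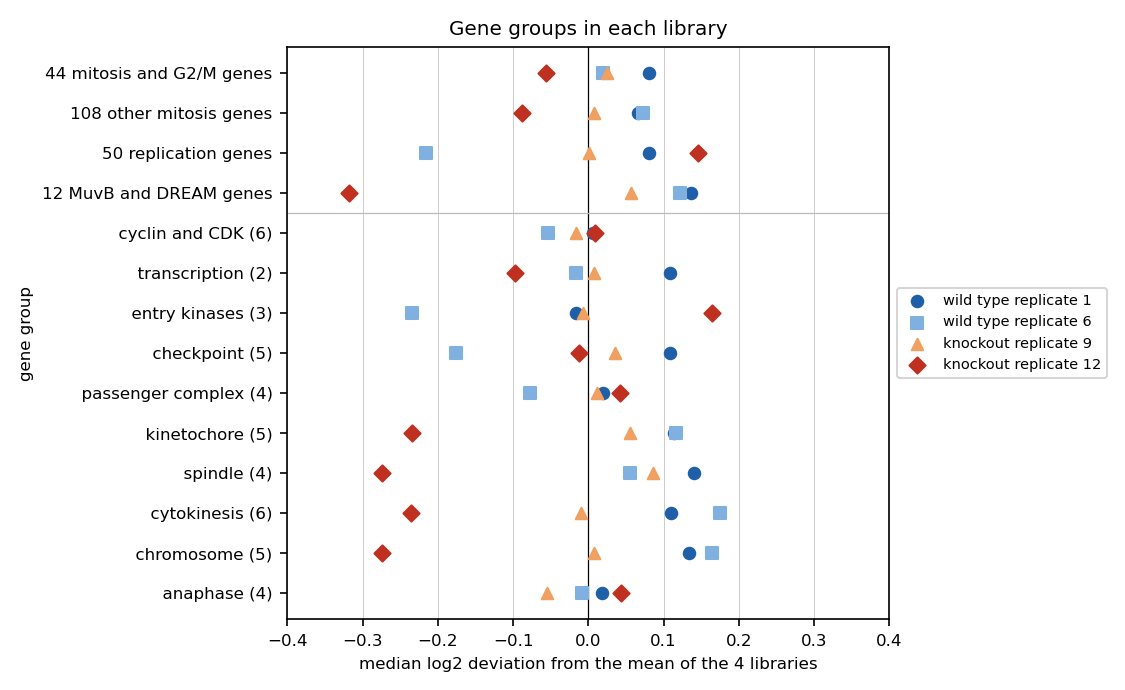
Median log2 deviation of each gene group from the mean of the 4 libraries, 1 point per library, for the 44 mitosis and G2/M genes, 3 comparison lists and the 10 roles (number of genes in brackets). Knockout replicate 12 is lowest for the kinetochore, spindle, cytokinesis and chromosome groups, and wild type replicate 6 is lowest for the replication genes.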

How the data were processed

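Gene expression was measured by RNA-seq in 4 libraries. Per the labels' protocols TRIzol was used to extract RNA and an Illumina HiSeq to sequence it. Bowtie2 and RSEM are the tools, and GRCm38.p6 and mm10 the builds, named in the submitters' processing notes, with no versions given in the sources used here. Each row of the deposited table holds a gene's RSEM expected count in each sample, and a value with no stated unit that was read as FPKM made by the authors, since count over value gave nearly the same length in each library. The 4 deposited columns of group means were not used. Expected counts were rounded, filtered with filterByExpr (minimum count 10, 12816 genes kept), scaled by TMM and tested with the two-sided quasi-likelihood F test of edgeR 4.0.16 (R 4.3.3), with Benjamini-Hochberg adjustment over all genes tested and a threshold of 0.05. With 2 residual and about 5.74 prior degrees of freedom, the SE came from the F statistic and the 95% interval from the t distribution.

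The length trend was a spline (5 degrees of freedom) of log2 CPM on log2 effective length, removed from each library through offsets. No pair of libraries agreed within sampling noise (chi-square per degree of freedom from 28.5 to 150.5). The closest pair was wild type replicate 1 with knockout replicate 9 (28.5), against 42.5 for the wild type pair and 49.1 for the knockout pair. The closest libraries were thus not of 1 genotype. Gene IDs matched the RefSeq table of GRCm38.p6 for 99.3% of genes, and coordinates are from it. The code was tested on simulated data. The members and lists were chosen with earlier results of these data known. Named with full values were, in each role, the 2 members of smallest p and a few well-known ones, and in each other list the 2 of smallest p. Alternatives were other scalings and filters, DESeq2 1.42.0, limma-voom 3.58.1, the length trend and each library left out. Promoters with no entry in the RefSeq table were not used here, and some single marker genes are not reported here.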

Additional observations from a re-analysis of the deposited data

How the results depend on the processing

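Over the 12 alternatives 0 members were called in either direction, so that count did not depend on the settings tried. The number of called genes did: 1 higher and 0 lower became 48 and 33 with no filter on low counts, and 89 and 97 in DESeq2, and with the length trend removed 1 gene was called lower. With 1 library left out, the calls, higher and then lower, numbered 113 and 81 (wild type replicate 1 left out), 31 and 14 (wild type 6), 6 and 2 (knockout 9) and 0 and 0 (knockout 12). The median log2 fold change of the members was -0.175 with library size as the one scaling, a setting in which the median of all genes was -0.08, and it ran from -0.125 (without knockout replicate 9) to -0.006 (without knockout replicate 12) with a library left out. The log2 ratio of the summed CPM, -0.14, was -0.048 with the length trend removed and ran from -0.239 to -0.056 with a library left out. DESeq2 and limma-voom give no other sum and were not run for it. The difference of medians between the mitosis and replication genes lay between -0.381 (wild type replicate 1 left out) and -0.059 (knockout replicate 12 left out). The causes were not tested, except that fits with fewer libraries and other filters test other sets of genes.

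Of the 44 fold changes 26 kept their sign under the 12 alternatives (12 positive and 14 negative), and 18 changed it under at least 1, each of them within 0.43 of 0 with all libraries. With library size as the scaling the values of changed sign were Tpx2 -0.072, Incenp -0.057, Aurkb -0.038, Nuf2 -0.024 and Bub1b -0.012. Tpx2 was also -0.011 with upper-quartile factors and -0.002 with a minimum count of 50. With the length trend removed they were Ube2c -0.144, Cdca8 -0.093, Aurkb -0.088, Nuf2 -0.057, Hmmr 0.004, Cenpf 0.011, Top2a 0.024, Ncapd2 0.034, Cenpe 0.101 and Espl1 0.106. With a library left out the ranges were -0.190 to 0.022 for Ccna2, -0.361 to 0.073 for Cdc25b, -0.132 to 0.042 for Cdc25c, -0.090 to 0.087 for Tpx2, -0.078 to 0.223 for Bub1b, -0.066 to 0.154 for Aurkb, -0.051 to 0.081 for Incenp, -0.552 to 0.038 for Cenpe, -0.086 to 0.215 for Nuf2, -0.746 to 0.039 for Kif11, -0.237 to 0.014 for Hmmr, -0.666 to 0.074 for Ect2 and -0.484 to 0.078 for Espl1. No paired analysis was possible because the genotypes share no replicate numbers. With 2 libraries per genotype, the differences seen in the members could not be told from the spread between libraries after adjustment. This includes Pttg1 with the length trend removed, at a log2 fold change of -1.11 (edgeR adjusted p 0.192).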
